A study of Mus musculus with 16 samples.

Results

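The antioxidant enzymes and oxidant sources described here are 34 mouse genes. They were chosen by symbol and not by a cutoff on their values, though earlier results of these data were known. They cover superoxide and peroxide removal, the thioredoxin and glutathione systems, the NRF2 axis and a few sources of oxidants or of NADPH. The symbols matched 35 rows of the 35682 in the deposited count table, because Nnt has 2 rows, and all 35 rows passed the filter on low counts that 10945 genes passed. RNA came from adult ventricular myocytes of 16 mice, 8 wild-type littermates (WT) and 8 carriers of a transgene named B3AR-Tg. All 16 had undergone transverse aortic constriction (TAC), a narrowing of the aorta that loads the left ventricle, and their cells were taken 9 weeks later. The genotypes are therefore compared under load, and unoperated animals were not analysed here. The promoter that drives the transgene, the exact age and the sex of the animals are not given in the sources used here. Cells were freed by Langendorff perfusion and kept on plates for an hour before RNA extraction, which applies to both genotypes.

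Heart muscle makes superoxide and hydrogen peroxide as by-products of respiration and through dedicated oxidases. Superoxide dismutases turn superoxide into hydrogen peroxide, which catalase, peroxiredoxins and glutathione peroxidases then reduce to water. Most peroxiredoxins are recharged by thioredoxin and glutathione peroxidases by glutathione, and both carriers draw their electrons from NADPH. NRF2, the transcription factor encoded by Nfe2l2, is held back by KEAP1 and drives many of these genes through antioxidant response elements when oxidants or electrophiles modify KEAP1.

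Library totals ran from 6926821 to 11584656 counts in WT and from 5985335 to 14365864 in B3AR-Tg, a difference in mean that did not pass an exact two-sided permutation test (p = 0.136). Adrb3, the mouse gene of the receptor the transgene is named for, had between 0 and 4 counts in every library, so it did not check the genotype labels. Myocyte markers summed to between 35660 and 45307 CPM (counts scaled to the TMM-adjusted library total) in WT and to between 41222 and 49468 in B3AR-Tg. Markers of other cells moved with genotype. The 7 fibroblast markers summed to between 38.2 and 119 CPM in WT and to between 11.0 and 46.5 in B3AR-Tg, with Tcf21 near 0 at 5 counts over all libraries. The 7 endothelial markers summed to between 79.9 and 127 CPM in WT and to between 39.4 and 148 in B3AR-Tg. The 8 leukocyte markers summed to between 2.14 and 9.81 CPM in WT and to between 0.795 and 4.42 in B3AR-Tg. Only 1 of the 8 leukocyte markers passed the filter on low counts. By exact two-sided permutation over the animals, the mean log2 level of these lists was lower in B3AR-Tg by 1.29 (adjusted p = 0.00373 over 6 marker lists), by 0.59 (adjusted p = 0.0298) and by 0.59 (adjusted p = 0.0451). The endothelial and leukocyte differences missed the threshold when 1 animal was left out, in 5 and in 10 of the 16 omissions. Mural markers differed by -0.30 (adjusted exact p = 0.226). Erythroid markers, of which 0 of 6 passed the filter, were at 0 to 1.36 CPM and differed by -0.26 (adjusted exact p = 0.0452), which was lost in 13 of the 16 omissions. The mean log2 level of the myocyte markers differed by 0.09 (adjusted exact p = 0.0586). In such bulk samples, fewer cells of a type and less RNA per cell cannot be told apart.

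Txnrd1, Glrx2 and Gstm1 were higher in B3AR-Tg myocytes, and no member was lower past the threshold. These 3 of 35 rows passed edgeR's quasi-likelihood test at a Benjamini-Hochberg adjusted p of 0.05 over all tested genes. Of all tested genes 4.91% passed, 2.03% as higher and 2.88% as lower. The members' 8.57% is a difference of 1 or 2 genes from that background, and it is not read as a property of the list. The fold change was above 0 for 24 rows and below 0 for 11, with a median of 0.06 on the log2 scale beside 0.006 over all tested genes, of which 51.1% were above 0. At an unadjusted p under 0.05, 9 rows differed (19.3% of tested genes did), 7 of them higher (8.71%) and 2 lower (10.6%). For no member did the CPM of the 2 genotypes separate without overlap, which happened for 0.448% of tested genes. Scaling by library size alone, without TMM factors, moved the share of higher genes among all calls from 41.3% to 67.7% and the number of members called from 3 to 6.

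**Figure D1:**
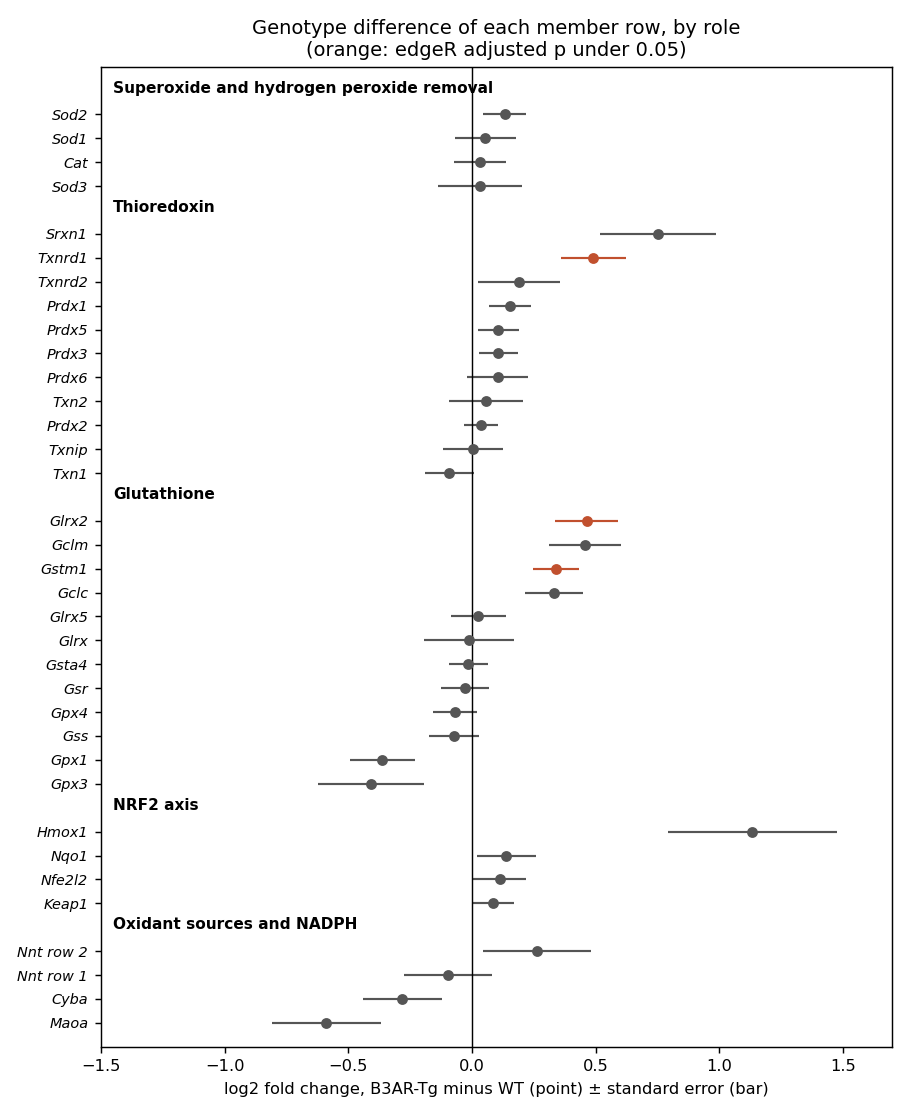
Log2 fold change of each of the 35 rows, B3AR-Tg minus WT (horizontal axis), with its standard error, grouped by role, for 8 animals per genotype. The 3 orange points (Txnrd1 at 0.49, Glrx2 at 0.46 and Gstm1 at 0.34) passed the adjusted threshold, while Hmox1 at 1.13 and Srxn1 at 0.75 lie further out with wider bars (Srxn1 at 0.42 without B3AR-Tg animal 1).

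The members spanned a wide range of levels per length. In WT, Gpx4, the peroxidase that reduces lipid hydroperoxides in membranes, had the highest level at 329 CPM per kilobase of annotated exon. Prdx3, the peroxiredoxin of the mitochondrial matrix, followed at 144, and then Txnip at 105, Prdx2 at 93.8, Cat at 91.0 and Prdx5 at 88.9. Sod2, the manganese dismutase of mitochondria, stood at 63.6 CPM per kilobase, above the cytosolic Sod1 at 16.8. At the low end were Glrx2 at 0.991, Maoa at 0.977 and the secreted Sod3 at 0.949. These levels divide by all annotated exon bases of a gene, so genes with long or rarely used exons read low. The members varied between animals about as much as other genes did. Their median within-genotype standard deviation (SD) of log2 CPM was 0.258, beside 0.280 over all tested genes. Of the 35 rows, 22 lay under that median of tested genes. Prdx2 was among the steadiest genes (SD 0.105), and Hmox1 among the most variable (SD 0.777, above 96.9% of tested genes).

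**Figure D2:**
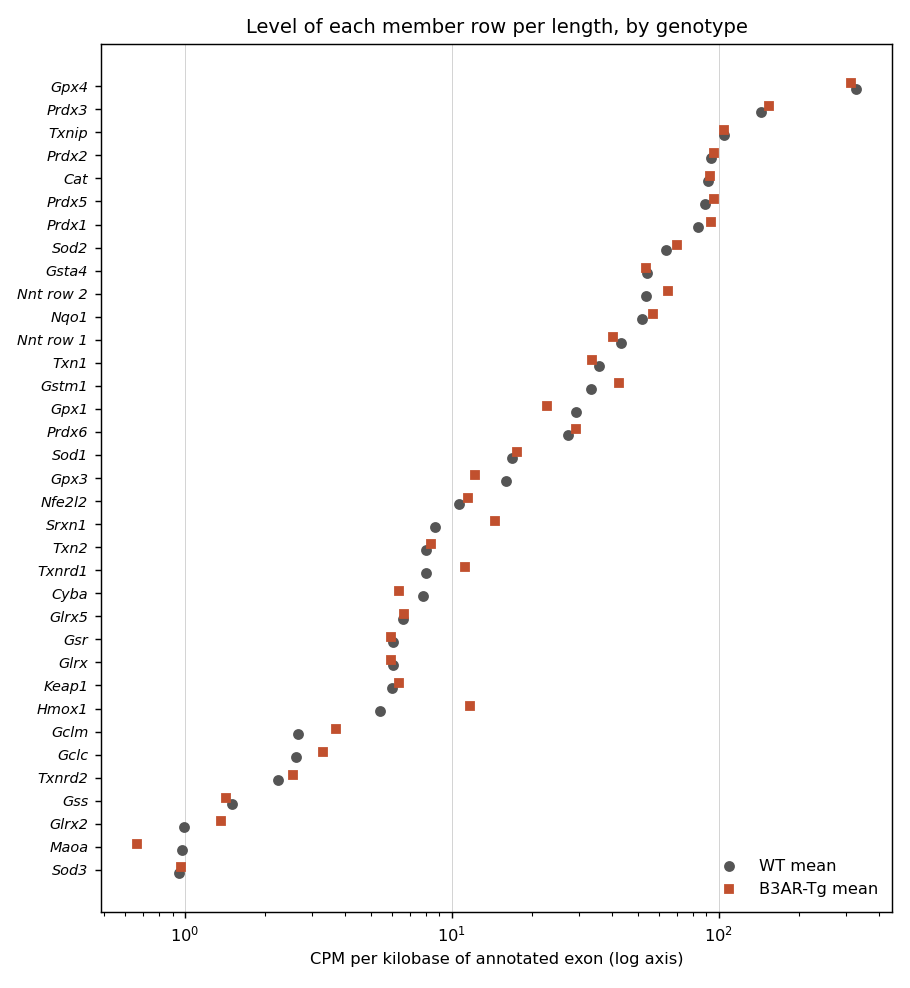
Mean level of each of the 35 rows in CPM per kilobase of annotated exon (log axis), WT as grey circles and B3AR-Tg as orange squares, ordered by WT. Levels run from 0.949 for Sod3 to 329 for Gpx4 in WT, and the genotypes lie close together for most members.

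The 4 genes of superoxide removal and catalase did not pass the test. Sod2 ranged from 560 to 740 CPM with a median of 619 in WT, and from 588 to 780 with a median of 717 in B3AR-Tg. Both genotypes overlapped over most of that range, with 3 B3AR-Tg animals above every WT animal, and the log2 fold change was 0.13 (SE 0.086, edgeR adjusted p = 0.427). Of the 8 annotated transcripts of Sod2, 2 share a stretch of up to 3110 bases at 98.3% identity with Rps6ka2. Over all libraries Rps6ka2 had 5660 counts and Sod2 had 106509. Sod1 ranged from 62.2 to 74.9 CPM in WT (median 66.0) and from 40.5 to 94.5 in B3AR-Tg (median 69.5). The B3AR-Tg animals lay on both sides of the narrow WT range, 2 below it and 2 above it. The fold change of Sod1 was 0.05 on the log2 scale, and its 95% interval ran from -0.19 to 0.30. Cat, which encodes catalase, and Sod3, the extracellular dismutase, each had a log2 fold change of 0.03.

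In the thioredoxin system 1 of 11 genes rose and none fell, beside 2.03% and 2.88% of all tested genes. Counts this small are not read as a property of the system. Txnrd1 encodes the cytosolic thioredoxin reductase, a selenoprotein that passes electrons from NADPH to thioredoxin. It lies on chromosome 10 (GRCm38 chr10:82833951-82897712, plus strand). Its level ran from 46.5 to 69.0 CPM with a median of 56.4 in WT, and from 55.2 to 104 with a median of 83.8 in B3AR-Tg. Of the B3AR-Tg animals, 5 were above every WT animal and the other 3 lay inside the WT range. The log2 fold change was 0.49 (SE 0.13, edgeR adjusted p = 0.0337). Txnrd2, the mitochondrial reductase, had a log2 fold change of 0.19 (SE 0.17, edgeR adjusted p = 0.562). A difference between the fold changes of these reductases was not tested.

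Srxn1 encodes sulfiredoxin, which rescues certain peroxiredoxins whose active-site cysteine has been over-oxidized. It ran from 17.4 to 32.8 CPM with a median of 23.5 in WT, and from 24.9 to 98.6 with a median of 32.0 in B3AR-Tg. All 8 B3AR-Tg animals were above the WT median but only 3 above every WT animal, and B3AR-Tg animal 1 held the value of 98.6, with the next at 45.5. The log2 fold change of 0.75 (SE 0.23) did not pass (edgeR adjusted p = 0.0698), and without B3AR-Tg animal 1 it was 0.42 (edgeR adjusted p = 0.0901). The peroxiredoxins themselves differed little between genotypes: Prdx1, Prdx2, Prdx3, Prdx5 and Prdx6 had log2 fold changes between 0.04 and 0.15, and none passed. Prdx1 had the lowest edgeR adjusted p of these, 0.335, with a median of 253 CPM in WT and 277 in B3AR-Tg. The thioredoxins Txn1 (cytosolic) and Txn2 (mitochondrial) were at -0.09 and 0.06. Txnip, whose protein binds thioredoxin and blocks its active site, ranged from 282 to 426 CPM around a median of 315 in WT, and from 233 to 484 around 317 in B3AR-Tg. Its B3AR-Tg values enclosed the whole WT range, and the log2 fold change was 0.003 (95% interval -0.23 to 0.24).

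In the glutathione system 2 of 12 genes rose and none fell, beside 2.03% and 2.88% of all tested genes. Counts this small are not read as a property of the system. Gstm1 encodes a mu-class glutathione S-transferase, which joins glutathione to electrophiles (chr3:108012255-108017973, minus strand). It ran from 40.3 to 63.8 CPM with a median of 47.2 in WT, and from 55.5 to 69.3 with a median of 61.0 in B3AR-Tg. The B3AR-Tg values all exceeded the WT median, and 3 of them exceeded every WT value. The log2 fold change was 0.34 (SE 0.093, edgeR adjusted p = 0.0379). Glrx2 encodes a mitochondrial glutaredoxin, which removes glutathione from protein thiols (chr1:143716338-143749676, plus strand). It ran from 7.06 to 11.7 CPM with a median of 8.14 in WT, and from 8.56 to 13.7 with a median of 12.2 in B3AR-Tg. All 8 B3AR-Tg animals were above the WT median, 4 of them above every WT animal, and the log2 fold change was 0.46 (SE 0.13, edgeR adjusted p = 0.0382). Of the 13 annotated transcripts of Glrx2, 1 holds a stretch of up to 348 bases that is at least 95% identical to parts of 22 other genes, so its count is uncertain to that extent. Of those genes 10 were tested and none passed, with log2 fold changes from -0.16 to 0.49, while the 2 copies of Gstm1 had no counts.

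The remaining glutathione genes went in both directions without passing. Gclm and Gclc encode the regulatory and the catalytic subunit of glutamate-cysteine ligase, the first step of glutathione synthesis. Gclm ran from 13.0 to 23.6 CPM (median 15.9) in WT and from 12.01 to 28.3 (median 23.5) in B3AR-Tg. The lowest value of all belonged to B3AR-Tg animal 3, and the other 7 B3AR-Tg animals were above the WT median. The log2 fold change was 0.46 (SE 0.15, edgeR adjusted p = 0.0759), and 1 of its 7 transcripts shares a 287-base stretch at 97.9% identity with the abundant Ppia. Gclc ran from 7.19 to 11.6 CPM (median 10.2) in WT and from 10.3 to 15.3 (median 12.2) in B3AR-Tg. Every B3AR-Tg animal exceeded the WT median and 5 exceeded every WT animal, with a log2 fold change of 0.33 (SE 0.12, edgeR adjusted p = 0.110). Gss, which completes glutathione, and Gsr, which regenerates it from its disulfide, were at -0.07 and -0.03.

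Gpx1, the general cytosolic and mitochondrial glutathione peroxidase, had the opposite sign. It ran from 27.3 to 54.9 CPM (median 42.2) in WT and from 24.7 to 44.1 (median 31.2) in B3AR-Tg. The ranges overlapped, 3 WT animals lay above every B3AR-Tg animal, and 7 of the 8 B3AR-Tg values were below the WT median. The log2 fold change was -0.36 (SE 0.13, edgeR adjusted p = 0.118). The secreted Gpx3 was at -0.41 (SE 0.22, edgeR adjusted p = 0.314), and Gpx4 at -0.07. The other glutathione members, Glrx, Glrx5 and Gsta4, had log2 fold changes between -0.01 and 0.03.

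**Figure D3:**
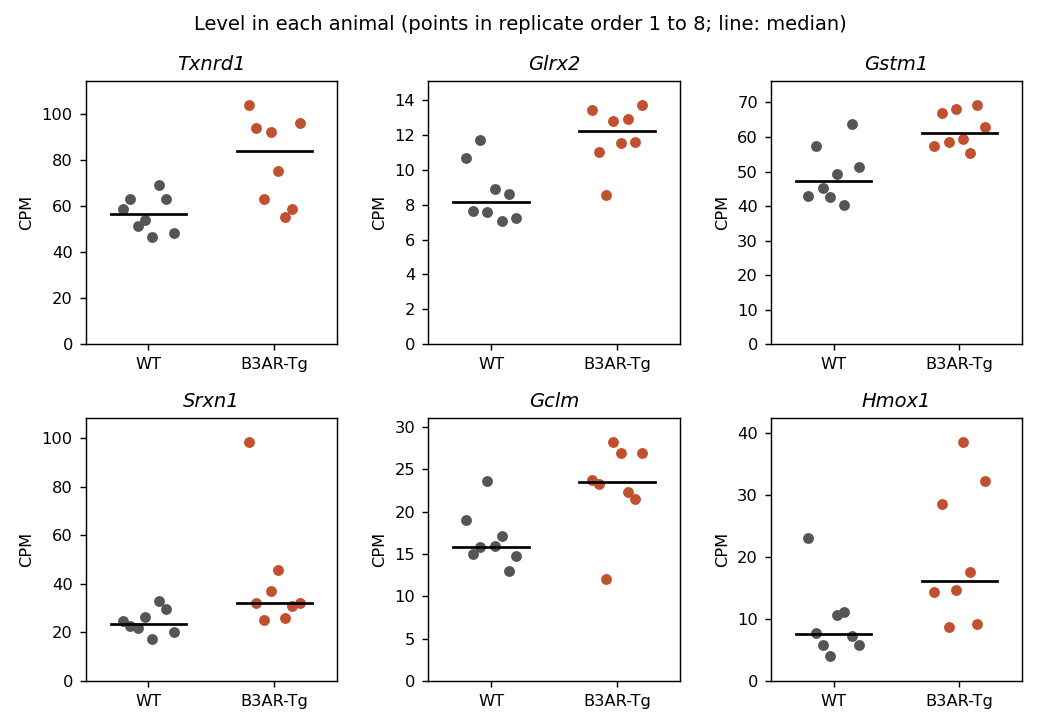
CPM (vertical axes) of Txnrd1, Glrx2, Gstm1, Srxn1, Gclm and Hmox1 in each of 8 WT (grey) and 8 B3AR-Tg (orange) animals, with the median as a line. The genotypes overlap in all 6 panels, and single animals stand apart at 98.6 CPM (Srxn1, B3AR-Tg 1) and 12.01 CPM (Gclm, B3AR-Tg 3).

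None of the 4 genes of the NRF2 axis passed with all 16 animals. Hmox1 encodes heme oxygenase 1, which degrades heme and responds to NRF2 among other factors. It ran from 4.02 to 23.0 CPM with a median of 7.53 in WT, and from 8.66 to 38.6 with a median of 16.1 in B3AR-Tg. All B3AR-Tg animals were above the WT median, but WT animal 1, at 23.0 CPM, was above 5 of them. Its log2 fold change of 1.13 had the largest absolute value among the members and a standard error of 0.34 (edgeR adjusted p = 0.0594). It passed without WT 1 (1.47, edgeR adjusted p = 0.0159), without B3AR-Tg 3 (1.25, adjusted p = 0.0341) and without B3AR-Tg 7 (1.25, adjusted p = 0.0337), and in the other 13 omissions it did not. Nqo1, a quinone reductase and a standard NRF2 reporter gene, ran from 64.3 to 95.8 CPM (median 83.8) in WT and from 67.5 to 117 (median 85.1) in B3AR-Tg. The medians nearly coincided, and the log2 fold change was 0.14 (SE 0.12, edgeR adjusted p = 0.558). Nfe2l2 ran from 34.4 to 47.9 CPM (median 40.1) in WT and from 34.3 to 62.4 (median 43.1) in B3AR-Tg. Its B3AR-Tg values enclosed those of WT, with a log2 fold change of 0.11 (SE 0.11, edgeR adjusted p = 0.606), and Keap1 was at 0.09 (edgeR adjusted p = 0.627). RNA levels of Nfe2l2 and Keap1 do not measure NRF2 activity, which is set largely at the protein.

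Among the members, 11 are textbook NRF2 targets: Nqo1, Hmox1, Gclc, Gclm, Txnrd1, Srxn1, Prdx1, Gsr, Gsta4, Gstm1 and Txn1. Of these 8 had a fold change above 0 (51.1% of all tested genes did) and 2 rose, Txnrd1 and Gstm1 (2.03% of tested genes). At an unadjusted p under 0.05, 6 were higher (8.71% of tested genes) and none lower. Their median log2 fold change was 0.33, beside 0.04 for the other 24 rows, of which 1 rose (Glrx2), and 0.006 over all tested genes. The list was made with earlier results of these animals known, and no test was made of it. Nqo1, Prdx1, Gsr, Gsta4 and Txn1 had log2 fold changes between -0.09 and 0.15.

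The core letters of the antioxidant response element, TGACNNNGC, were searched on both strands in the 250 bases before each RefSeq start site (GRCm38.p6), because 11 of the members are textbook NRF2 targets. Of the 34 genes, 27 were in that table and 5 held the letters (18.5%), as did 11.5% of all 27025 genes in it. The windows around the matches follow, each read 5′ to 3′ on the strand of the gene, with the match in capitals. Where the capitals begin with GC, the match is on the opposite strand. Letters of the form TGACTCA, the site of AP-1 factors, can lie within such a match. Of the 5 matches only that of Prdx1 holds them, on the opposite strand.
Txnrd1, chr10:82859089-82859147: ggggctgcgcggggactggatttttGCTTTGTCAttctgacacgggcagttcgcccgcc
Gclm, chr3:122245398-122245456: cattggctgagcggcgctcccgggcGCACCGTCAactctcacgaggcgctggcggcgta
Prdx1, chr4:116685441-116685499: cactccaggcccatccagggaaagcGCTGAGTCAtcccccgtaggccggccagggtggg
Nfe2l2, chr2:75704870-75704913: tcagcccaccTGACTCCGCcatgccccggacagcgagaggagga
Sod1, chr16:90220681-90220739: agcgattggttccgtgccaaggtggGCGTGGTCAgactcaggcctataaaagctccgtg
All windows lie on the plus strand except that of Nfe2l2, and Txnrd1 holds the match at 1 of its 3 listed starts. Txnrd1 rose, while Gclm (0.46), Prdx1 (0.15), Nfe2l2 (0.11) and Sod1 (0.05) did not pass the test. Of the 11 NRF2 targets 7 were in the table and 3 held the letters (Txnrd1, Gclm and Prdx1). Gstm1, Srxn1 and Nqo1 had no match in this window, and Hmox1 and Gclc had no promoter listed. A match of these letters is a description of the sequence and was not measured as a bound site.

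Among the oxidant sources and the NADPH supply, no row passed. Maoa encodes monoamine oxidase A, an enzyme of the outer mitochondrial membrane that releases hydrogen peroxide as it oxidizes amines. It ran from 2.06 to 6.07 CPM (median 4.39) in WT and from 1.85 to 3.90 (median 2.56) in B3AR-Tg. The B3AR-Tg values all lay below the WT median, though the ranges overlapped. Its log2 fold change was -0.59 (SE 0.22, edgeR adjusted p = 0.131), on 14 to 68 counts per library, and its transcript shares 254 bases at 95.7% identity with Cul4a. Cyba encodes p22phox, the membrane subunit that NADPH oxidases need. It ran from 5.36 to 9.95 CPM (median 8.69) in WT and from 4.55 to 9.80 (median 6.43) in B3AR-Tg. The ranges overlapped, 7 of the 8 B3AR-Tg values lay under the WT median, and the log2 fold change was -0.28 (SE 0.16, edgeR adjusted p = 0.356). The catalytic partners of p22phox were scarcely counted: Nox4 had 153 counts over all 16 libraries and Cybb had 80. Both were below the filter and were not tested.

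Nnt encodes the transhydrogenase of the inner mitochondrial membrane, which makes NADPH from NADH at the expense of the proton gradient. Its 2 rows overlap on chromosome 13 (chr13:119335448-119408997 and chr13:119335528-119408952, both on the minus strand), and the single 3339-base transcript of the second is identical to sequence of the first. How the reads were divided between them cannot be told apart from a real difference, so the sum is the readable quantity. The first row averaged 303 ± 69.9 CPM in WT and 283 ± 87.2 in B3AR-Tg (SD, n = 8 each), and the second 179 ± 45.2 and 215 ± 81.7. The first row's share of both ran from 51.6% to 80.6% in WT and from 35.0% to 82.7% in B3AR-Tg. Summed, Nnt ran from 409 to 541 CPM (median 502) in WT and from 407 to 653 (median 470) in B3AR-Tg. The coefficient of variation of the sum was 11.4% in WT and 16.3% in B3AR-Tg, below the 23.1% to 38.0% of the single rows. The genotypes overlapped, and the log2 fold change of the sum was 0.05 (SE 0.098, edgeR adjusted p = 0.837).

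**Figure D4:**
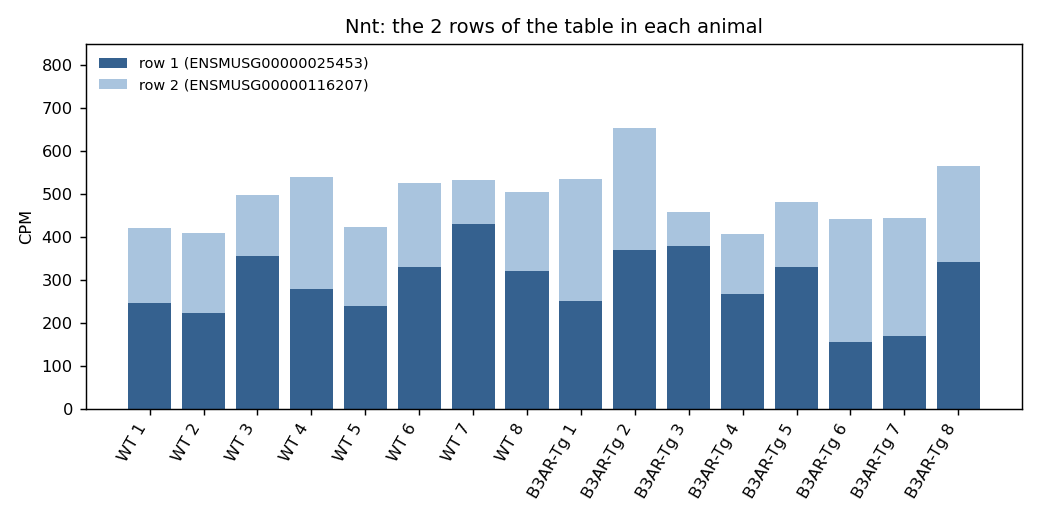
Stacked CPM of the 2 Nnt rows in each animal, the first row dark and the second light. The total lies between 407 and 653 CPM in every animal while the share of the first row runs from 35.0% to 82.7%.

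The 3 calls lay close to the threshold and depended on which animals were included. When each animal was left out in turn, the number of members called as higher ran from 0 to 6, and 6 of the 16 omissions (WT 5, WT 8 and B3AR-Tg 2, 4, 5 and 8) left none. Txnrd1 kept its call in 7 of 16 omissions, Glrx2 in 4 and Gstm1 in 5. Their log2 fold changes stayed between 0.43 and 0.55, between 0.43 and 0.54 and between 0.31 and 0.40, and their edgeR adjusted p-values ran from 0.0172 to 0.0699, from 0.0139 to 0.0841 and from 0.0134 to 0.0850. Without B3AR-Tg 3, the 6 genes Txnrd1, Glrx2, Gstm1, Srxn1, Gclm and Hmox1 were called as higher and Gpx1 as lower. Over the 16 omissions, genes called among all tested genes ran from 272 to 675, beside 537 of 10945 with all animals. The changing number of members called is therefore not read as a property of the list. Gpx1 was also called as lower without WT 3, where 675 of 11065 tested genes were called.

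**Figure D5:**
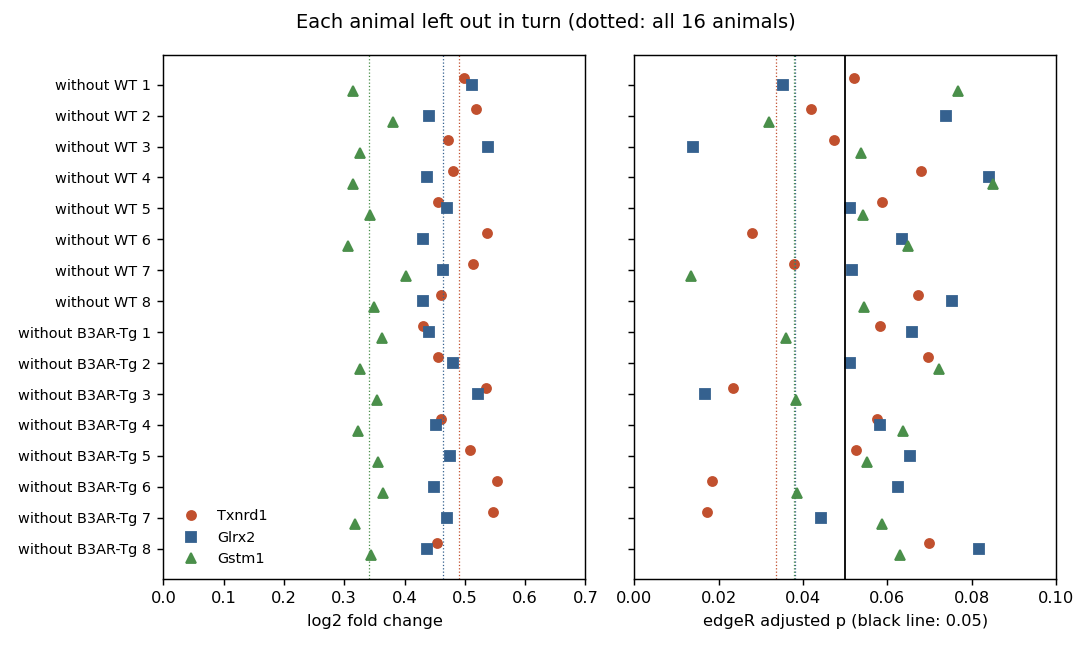
Log2 fold change (left) and edgeR adjusted p (right) of Txnrd1, Glrx2 and Gstm1 with each of the 16 animals left out in turn, and with all animals as dotted lines. The fold changes stay between 0.31 and 0.55, whereas the adjusted p-values fall on both sides of the black line at 0.05.

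The level of other-cell markers, the mean of the fibroblast, endothelial and leukocyte levels, moved with genotype across the 16 animals. Its Pearson r with genotype was -0.77, given as a description. With that level as a covariate in edgeR's model, no member passed and 3 genes of the table did. The log2 fold changes were then 0.49 for Txnrd1 (SE 0.20, adjusted p = 0.372), 0.52 for Glrx2 (SE 0.20, adjusted p = 0.329) and 0.52 for Gstm1 (SE 0.14, adjusted p = 0.234). Those of Srxn1 and Gclm were 0.87 and 0.55, and that of Gclc was 0.16, beside 0.33 without the covariate. The values of Hmox1 (0.49), Maoa (-0.01) and Gpx3 (0.16) lay nearer to 0 than without the covariate, or on the other side of it, and that of Cyba was -0.73. The part of other cells in the fold changes of Hmox1, Maoa, Gpx3 and Cyba was not tested further. The covariate raised the standard error of every member row, from 0.12 to 0.19 for Sod1 and from 0.13 to 0.20 for Txnrd1. Calls lost with the covariate cannot be told apart from this loss of precision.

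Of 109 other symbols listed for the same pathways, 108 matched a row of the table and 81 of those were tested. The unmatched symbol was Ero1l, while Ero1a had a row. Of the 81 tested genes, 3 rose and 2 fell (6.17%, beside 4.91% of all genes). Leaving out each animal in turn gave 1 to 4 that rose and 0 to 2 that fell. Aox1, an aldehyde oxidase that releases superoxide and hydrogen peroxide, ran from 22.5 to 41.2 CPM (median 29.9) in WT and from 35.6 to 58.4 (median 43.5) in B3AR-Tg. Of the B3AR-Tg animals 6 were above every WT animal, and the log2 fold change was 0.58 (SE 0.13, edgeR adjusted p = 0.0131). Nadk2, the mitochondrial kinase that makes NADP from NAD, rose by 0.37 (edgeR adjusted p = 0.0405), with 6 B3AR-Tg animals above every WT animal. Gstm2, a close relative of Gstm1, rose by 0.34 (edgeR adjusted p = 0.0420). Txndc17, a small thioredoxin-like protein of the cytosol, lay between 27.1 and 33.2 CPM in WT and between 22.4 and 26.7 in B3AR-Tg. Its groups did not overlap, and the log2 fold change was -0.27 (SE 0.069, edgeR adjusted p = 0.0310). Ero1a, the oxidase that forms disulfides in the endoplasmic reticulum and releases hydrogen peroxide, had a log2 fold change of -0.60 (SE 0.16, edgeR adjusted p = 0.0340), with 7 of 8 B3AR-Tg animals below every WT animal. Maob, the other monoamine oxidase, was at 0.29 (SE 0.11, edgeR adjusted p = 0.160) against -0.59 for Maoa, and a difference between these was not tested. Among the 22 tested glutathione genes of this list 1 rose and none fell, and among the 22 of the NRF2 axis none passed, with a median log2 fold change of 0.07.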

How the data were processed

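The authors deposited whole-number counts per gene for the 16 animals, with no normalization. Per the submitters' processing notes, Salmon and GRCm39 were used, with no role, version or strand setting given, so how reads shared by several genes were assigned is not given in the sources used here. Each column matched 1 animal by the name in its label. The labels number the animals as biological replicates, and the 56 pairs within genotypes differed by more than sampling noise (chi-square per gene 6.03 to 58.9).

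The genotypes were compared gene by gene in edgeR 4.0.16 (R 4.3.3; glmQLFit and glmQLFTest), after filterByExpr (minimum count 10, minimum total count 15) and TMM scaling, with genotype as the only term. P-values are two-sided and Benjamini-Hochberg adjusted over 10945 genes, with a threshold of 0.05. Intervals of log2 fold changes are the estimate ± 1.96 standard errors. Marker levels (mean log2 CPM, prior count 2) were compared by exact permutation over 12870 splits. A floor of 3 counts equals 0.201 to 0.487 CPM and covers counting error only. The model was tested on simulated data.

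Members with an adjusted p under the threshold, the 2 smallest p-values in each role group, and Nnt, Cyba, Txnip, Hmox1 and Nfe2l2 were named with ranges. Gclm, Gclc, Gpx1 and Gpx3 were described after their values were seen. Members and lists were chosen with earlier results of these data known. Positions come from GENCODE M21 (GRCm38), matched by gene ID, and promoter windows from RefSeq (GRCm38.p6), matched by symbol. Shared stretches were found with BLAST 2.17.0 (at least 95% identity over 200 bases). Alternatives covered scaling, the filter, DESeq2 1.42.0, limma 3.58.1 (voom with sample weights), a covariate, a block, removal of mitochondrially encoded genes, and each animal left out. Summing the Nnt rows was chosen after seeing the data.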

Additional observations from a re-analysis of the deposited data

Results flagged for a closer look

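In 5 of the 82 groups of 8 animals searched, 1 animal stood apart from the others of its genotype by Dixon's ratio, the gap to the nearest animal divided by the whole range, both on the log2 scale (CPM + 0.1), above its 95% critical value for 8 animals. Chance alone gives about 4.1 such groups. Srxn1 was highest in B3AR-Tg 1, at 98.6 CPM against 24.95 to 45.5 in the others (ratio 0.563). Gclm was lowest in B3AR-Tg 3, at 12.01 CPM against 21.5 to 28.3 (ratio 0.679), and so was Glrx2, at 8.56 CPM against 11.0 to 13.7 (ratio 0.538). Gss was lowest in B3AR-Tg 4, at 6.17 CPM against 8.23 to 9.46 (ratio 0.675). Glrx, a cytosolic glutaredoxin, was lowest in WT 4, at 13.8 CPM against 28.5 to 44.2 (ratio 0.621). On CPM without the log, a scale chosen after seeing the data, 8 groups passed, of which Srxn1 (0.720), Gclm (0.583) and Gss (0.628) were the 3 shared with the log2 scale. Glrx (0.482) and Glrx2 (0.479) did not pass there, while Hmox1 in WT 1 (0.623), Txn2 in WT 6 (0.552), Txnip in WT 8 (0.529), Nfe2l2 in B3AR-Tg 1 (0.552) and Ero1a in WT 8 (0.596), each the highest, did.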

How the results depend on the processing

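The 3 member calls were the same under RLE scaling, removal of mitochondrially encoded genes and summing of the Nnt rows. Members called as higher numbered 6 with library size only, 4 with no low-count filter, 5 with DESeq2, 5 with limma voom and 0 with the other-cell covariate. All genes called as higher numbered 346 of 10945 with library size only, 212 of 20301 with no filter and 329 of 13113 with DESeq2. They numbered 309 of 10945 with voom, 3 of 10945 with the covariate and 222 of 10945 in the main fit. The member counts are not read as a property of the list. Hmox1 passed with library size only (1.23), no low-count filter (1.15) and voom (1.19). Leaving out each animal gave 0 to 6 members called as higher and 0 to 1 as lower. Genes called in either direction numbered 840 of 13113 with DESeq2 and 3 of 10945 with the covariate (272 to 675 leaving out each animal). Genes called as higher ran from 113 to 278 leaving out each animal. Other pathway genes called as higher numbered 6 with library size only, 5 with DESeq2 and 0 with the covariate (1 to 4 leaving out each animal), and as lower 0 with library size only, 1 with no low-count filter and 0 with the covariate (0 to 2). The replicate block left 1 member called as higher (Gstm1), 230 genes called and 93 as higher. It left 1 other pathway gene as higher and 0 as lower. Same-numbered animals correlated between -0.22 and 0.09, none of 8 over 0.1 and none best with its own number. These correlations gave no sign of pairing by number. Whether the numbers pair the animals in another way was not tested.

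Among members that did not pass, the sign turned as follows, in log2 fold changes. With RLE, Txnip was at -2.74e-05. With library size only, Gpx4 was at 0.012, Gss 0.00397, Gsr 0.045, Glrx 0.062 and Gsta4 0.066. With no low-count filter, Glrx was at 0.00712 and Gsta4 0.00417. With voom, Sod1 was at -0.023, Txn2 -0.036, Txnip -0.061, Glrx5 -0.027 and Gsta4 0.00264. With the covariate, Sod1 was at -0.12, Sod3 -0.13, Prdx2 -0.11, Prdx3 -0.055, Prdx5 -0.057, Prdx6 -0.19, Txn2 -0.24, Txnip -0.24, Gpx3 0.16 and Glrx5 -0.21. With the replicate block, Txnip was at -0.013 and Glrx 0.00427. Leaving out each animal gave Sod1 -0.021 to 0.14, Sod3 -0.037 to 0.097, Cat -0.032 to 0.096, Txn2 -0.029 to 0.17, Txnip -0.093 to 0.067, Gsr -0.064 to 0.018, Glrx -0.13 to 0.068, Glrx5 -0.034 to 0.095 and Gsta4 -0.047 to 0.018. The myocyte marker difference passed at 0.17 with library size only and 0.093 without mitochondrially encoded genes, and also without WT 3 (0.104) or B3AR-Tg 3 (0.111). Leaving out each animal, marker differences ran from 0.065 to 0.11 for myocytes, -0.74 to -0.48 for endothelium, -0.71 to -0.47 for leukocytes and -0.33 to -0.21 for erythroid cells. The cause of these shifts was not tested.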

Other observations

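Levels of the other members were set against Txnrd1 within each genotype, 34 rows in 8 animals each. Of the 68 relations none passed after adjustment, by Pearson or Spearman correlation with exact permutation, and 2 had an unadjusted Pearson p under 0.05. Srxn1 in WT had r = 0.849 (exact permutation p = 0.00814, adjusted p = 0.277; rho = 0.833, exact p = 0.0154) and r = 0.619 without the 2 animals farthest from the median. Sod3 in B3AR-Tg had r = 0.916 (exact permutation p = 0.00585, adjusted p = 0.277; rho = 0.738, exact p = 0.0458) and r = 0.861 without those 2. This relation rests on 24 to 66 counts of Sod3 per B3AR-Tg library.

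Some genes of the phagocyte oxidase complex were close to the limit of detection in these myocyte preparations: over all 16 libraries Ncf1 had 27 counts, Rac2 had 35 and Ncf4 had 1. G6pdx, the entry enzyme of the pentose phosphate pathway and a main source of cytosolic NADPH in many tissues, had 147 counts over all libraries and did not pass the filter.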
